A study of Mus musculus with 8 samples.

Results

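The Wnt ligands, their receptors and their antagonists were described in mouse kidney RNA. The 46 genes were taken by symbol from the 20240 genes used: all Wnt, Fzd (Frizzled), Dkk (Dickkopf) and Sfrp (secreted Frizzled-related protein) genes, with Frzb, Wif1, Lrp5, Lrp6, Axin2, Lef1, Tcf7, Rnf43 and Znrf3. They comprised 19 Wnt ligands, 10 Frizzled receptors, 2 LRP co-receptors, 4 Dickkopf antagonists, 6 secreted ligand binders, and 5 feedback and nuclear genes. All 46 were listed in the files, and 32 reached the minimum level for a test.

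Kidneys of C57BL/6 mice gave 8 RNA libraries, 2 in each of 4 groups. PKD_FP kidneys were polycystic and had received flavopiridol, a cyclin-dependent kinase inhibitor, and PKD_DMSO kidneys were polycystic with the vehicle. WT_FP kidneys were wild type with flavopiridol, and WT_DMSO kidneys were wild type with the vehicle. PKD stands for the mouse model of autosomal dominant polycystic kidney disease, in which fluid-filled cysts replace the tubules. The mutated gene, any Cre line, and the dose, duration and age are not stated in the labels. Nothing states whether the replicates came from separate animals, so the p-values here speak of the scatter among these libraries and no more.

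Wnt proteins are secreted, lipid-modified signals that bind Frizzled receptors. Together with the co-receptor LRP5 or LRP6, a bound Frizzled stops the destruction of beta-catenin, which then works with TCF/LEF transcription factors in the nucleus, while other Wnt signals run through Frizzled without beta-catenin and set the polarity of cells in the plane of a tissue. Dickkopf proteins block the LRP co-receptors, and the SFRPs, Frzb and Wif1 bind the ligands outside the cell. In the developing kidney, Wnt9b and Wnt4 drive the formation of nephrons, Wnt11 acts at the tips of the branching ureteric bud, and Wnt7b from the collecting duct shapes the medulla.

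Levels are FPKM, fragments per length of transcript and per total of fragments, a unit that was inferred from the values. Differences are on the log2(FPKM + 1) scale, which understates the change of genes near or under 1 FPKM, and ± marks the standard error of a difference. Each was tested in one limma fit over the 14391 genes that reached 1 FPKM in 2 or more libraries, with Benjamini-Hochberg adjustment and a threshold of 0.05. In the 8 libraries, 22 to 33 of the 46 genes reached 1 FPKM. The FPKM of all genes summed to between 485924 and 572661 per library. The number of reads is unknown. When low values were taken as 1 read each, that value, relative to the other libraries, lay between 0.926 and 1.09. Only genes whose few nonzero values were close together were used, so a large difference in depth could not have shown. All 8 proximal tubule markers were above 1 FPKM in every library, and so were all 6 podocyte markers. The summed proximal tubule markers were 588 to 806 FPKM in PKD_FP, 505 to 905 in PKD_DMSO, 2506 to 5309 in WT_FP and 4640 to 5685 in WT_DMSO kidneys. In whole-kidney RNA, fewer cells of a type and less RNA per cell cannot be told apart. Whether the libraries kept the strand is not stated, and Axin2, Fzd5, Fzd6, Lef1, Sfrp2, Wnt11, Wnt5a and Wnt7b share exon sequence with a gene on the other strand, as Wnt9b and Wnt3 overlap each other in extent, so their values are less certain.

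Of the ligands, Wnt7b, Wnt4 and Wnt5a averaged the most over all libraries, and Wnt10a, Wnt9b, Wnt5b, Wnt11, Wnt9a, Wnt7a and Wnt2 made up the rest of those tested. The 9 ligands not tested were Wnt16, Wnt2b, Wnt6, Wnt8b, Wnt10b, Wnt1, Wnt3, Wnt3a and Wnt8a, of which the last 4 were at or below 0.05 FPKM in every library. Summed over all 19, the ligands gave 80.9 and 137 FPKM in PKD_FP, 79.9 and 87.2 FPKM in PKD_DMSO, 28.6 and 104 FPKM in WT_FP, and 51.4 and 37.1 FPKM in WT_DMSO kidneys. The sum of both PKD_DMSO libraries lay above both WT_DMSO libraries, while 1 WT_FP library lay within the range of the PKD_FP libraries.

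**Figure D1:**
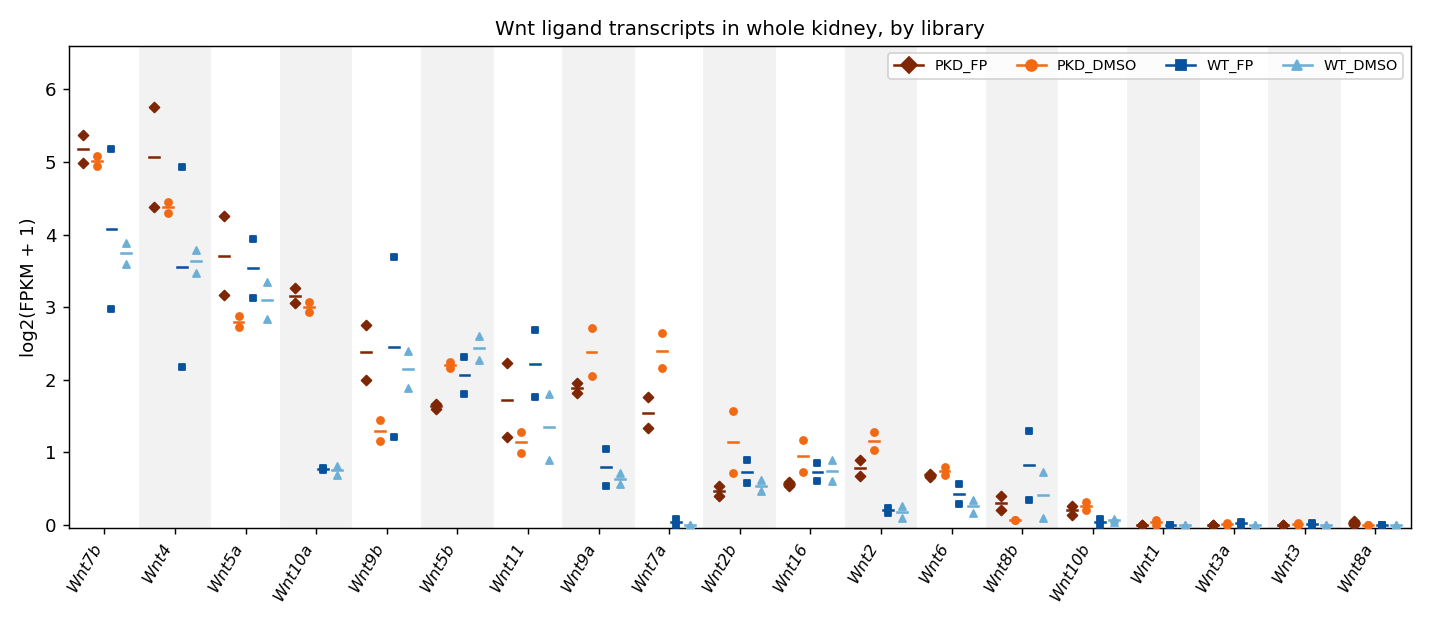
Level of the 19 Wnt ligands in each of the 8 libraries, on the log2(FPKM + 1) axis, by group, with a bar at each group's mean. Wnt10a and Wnt7a show PKD_FP and PKD_DMSO libraries far above all WT_FP and WT_DMSO libraries, whereas Wnt4, Wnt7b and Wnt9b spread widely between the libraries of 1 group.

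The first question was what the disease changed without drug. Between PKD_DMSO and WT_DMSO kidneys, the ligands Wnt10a, Wnt7a, Wnt9a and Wnt2, the receptor Fzd2, the secreted ligand binder Frzb and the transcription factor gene Tcf7 were higher. No member was lower. The limma calls, with Benjamini-Hochberg adjustment, numbered 7 of 32 higher and 0 lower. Of all 14391 genes tested, 14.8% were called higher and 7.52% lower. The 7 members made up 21.9% of the 32, a share whose difference from that of all genes was not tested, and nothing particular to the Wnt genes is read from it. Wnt10a, Wnt7a, Wnt9a, Wnt2 and Fzd3 reached the minimum level only through PKD libraries, so the count is a description. At an unadjusted limma p under 0.05, 11 members were higher and 0 lower, against 24.9% and 13.1% of all genes. The median difference was 0.45 over the 32 members and 0.12 over all genes. Median-of-ratios scaling moved the median of all genes to -0.01. It also changed the calls over all genes to 1539 higher and 1324 lower, in place of 2130 higher and 1082 lower, and quantile normalization gave 1700 higher and 1522 lower.

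Wnt10a, a ligand of the beta-catenin pathway known from skin, tooth and hair, lies on chromosome 1 from 74792019 to 74804176 (GRCm38, as are all positions given). It stood at 8.57 and 7.31 FPKM in PKD_FP, 7.38 and 6.66 FPKM in PKD_DMSO, 0.72 and 0.68 FPKM in WT_FP, and 0.75 and 0.61 FPKM in WT_DMSO kidneys. All 4 PKD libraries lay far above all 4 WT libraries, and within each genotype the drug and vehicle libraries were close together. The difference was 2.25 ± 0.17 between PKD_DMSO and WT_DMSO (limma adjusted p = 0.00162) and 2.39 ± 0.17 between PKD_FP and WT_FP (limma adjusted p = 0.00305). Its neighbour Wnt6, which ends 6697 bp before Wnt10a begins, was not tested. Wnt6 had 0.58 and 0.62 FPKM in PKD_FP, 0.60 and 0.74 FPKM in PKD_DMSO, 0.22 and 0.48 FPKM in WT_FP, and 0.27 and 0.12 FPKM in WT_DMSO kidneys. Wnt6 was thus also higher in all 4 PKD libraries than in all 4 WT libraries, at much lower levels.

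Wnt7a (chromosome 6, 91363981 to 91411353) encodes a ligand known from limb and female reproductive tract development. It had 2.37 and 1.52 FPKM in PKD_FP and 3.46 and 5.23 FPKM in PKD_DMSO kidneys. It was listed at 0.06 and 0 FPKM in WT_FP and at 0 in both WT_DMSO kidneys, so that no fold is given. The difference on the log2(FPKM + 1) scale was 2.40 ± 0.25 between PKD_DMSO and WT_DMSO (limma adjusted p = 0.00280) and 1.50 ± 0.25 between PKD_FP and WT_FP (limma adjusted p = 0.0157). Wnt7a was thus the member present in the polycystic kidneys and close to nil in the others. Its near namesake Wnt7b, a collecting duct ligand, was well above it in every library.

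Wnt9a (chromosome 11, 59306849 to 59333552), a ligand known from joint and blood development, had 2.88 and 2.52 FPKM in PKD_FP, 3.13 and 5.56 FPKM in PKD_DMSO, 0.45 and 1.06 FPKM in WT_FP, and 0.63 and 0.47 FPKM in WT_DMSO kidneys. The genotypes did not overlap under either treatment. The difference was 1.75 ± 0.29 between PKD_DMSO and WT_DMSO (limma adjusted p = 0.00958) and 1.10 ± 0.29 between PKD_FP and WT_FP (limma adjusted p = 0.0484), the last of these being lost in 12 of 15 alternatives. Wnt3a, which lies 16098 bp away on the same chromosome, was at or below 0.05 FPKM in every library.

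Wnt2 (chromosome 6, 17985474 to 18032772), known from placenta and lung development, was the lowest member called. It had 0.59 and 0.85 FPKM in PKD_FP, 1.04 and 1.42 FPKM in PKD_DMSO, 0.12 and 0.17 FPKM in WT_FP, and 0.07 and 0.20 FPKM in WT_DMSO kidneys. Every PKD library was above every WT library. The difference was 0.97 ± 0.21 between PKD_DMSO and WT_DMSO (limma adjusted p = 0.0214). Between PKD_FP and WT_FP it was 0.58 ± 0.21 and did not pass (limma adjusted p = 0.113). The PKD_DMSO to WT_DMSO call was lost without WT_DMSO replicate 1, without WT_DMSO replicate 2, and without both WT_FP replicate 2 and PKD_FP replicate 2. The difference was then 0.89, 1.05 and 0.97. With either PKD_DMSO library left out, Wnt2 fell under the minimum level, so that it was tested in 13 alternatives.

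Frzb (chromosome 2, 80411970 to 80447396) encodes a secreted protein that holds a Frizzled-like ligand-binding domain and captures Wnts. It had 21.0 and 28.2 FPKM in PKD_FP, 19.0 and 40.7 FPKM in PKD_DMSO, 5.58 and 8.88 FPKM in WT_FP, and 5.99 and 4.14 FPKM in WT_DMSO kidneys. The lowest PKD library was above the highest WT library. The difference was 2.27 ± 0.39 between PKD_DMSO and WT_DMSO (limma adjusted p = 0.0109) and 1.65 ± 0.39 between PKD_FP and WT_FP (limma adjusted p = 0.0375). The second of these calls was lost in 6 of 15 alternatives. The first call was lost without PKD_DMSO replicate 2 (limma adjusted p = 0.0599) and without WT_DMSO replicate 2 (limma adjusted p = 0.0524), with 0.00840 to 0.0599 over 15 alternatives.

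Tcf7 (chromosome 11, 52246527 to 52283383) encodes TCF1, a partner of beta-catenin on DNA that is best known from T cells. It had 4.71 and 5.57 FPKM in PKD_FP, 3.09 and 4.68 FPKM in PKD_DMSO, 1.28 and 1.07 FPKM in WT_FP, and 1.07 and 0.63 FPKM in WT_DMSO kidneys. The genotypes were apart under both treatments, by 1.39 ± 0.24 between PKD_DMSO and WT_DMSO (limma adjusted p = 0.0104) and by 1.50 ± 0.24 between PKD_FP and WT_FP (limma adjusted p = 0.0142). The 7 T and B lymphocyte markers summed to 7.27 and 6.80 FPKM in PKD_FP, 2.87 and 4.49 FPKM in PKD_DMSO, 4.04 and 3.04 FPKM in WT_FP, and 3.73 and 4.46 FPKM in WT_DMSO kidneys. With vehicle these sums overlapped between the genotypes, and 0 of the 3 lymphocyte markers tested were called, while with flavopiridol 2 of the 3, Cd3d and Cd4, were higher in PKD_FP. With vehicle, Cd4 alone had 1.05 and 2.07 FPKM in PKD_DMSO and 0.63 and 0.44 FPKM in WT_DMSO kidneys, without overlap and without passing the test (limma adjusted p = 0.103). The part of these markers in the level of Tcf7 was not tested.

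Fzd2 (chromosome 11, 102604431 to 102608058), a Frizzled receptor, had 3.56 and 4.28 FPKM in PKD_FP, 4.09 and 7.96 FPKM in PKD_DMSO, 2.33 and 1.68 FPKM in WT_FP, and 2.56 and 1.60 FPKM in WT_DMSO kidneys. All PKD libraries were above all WT libraries. The difference between PKD_DMSO and WT_DMSO was 1.15 ± 0.31 (limma adjusted p = 0.0422), and this call was lost under 12 of 15 alternatives. Between PKD_FP and WT_FP it was 0.72 ± 0.31 and did not pass (limma adjusted p = 0.174).

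Calls over all genes fell whenever a compared group was left with 1 library, so nothing particular to the Wnt genes is read from lost calls. Without PKD_DMSO replicate 2, Wnt2 fell under the minimum level and was not tested. Only Wnt10a and Wnt7a then kept a limma adjusted p under 0.05. Tcf7 and Wnt9a, with differences of 1.15 and 1.42, were among those that did not. Over all 15 alternatives that adjusted p ranged from 0.00857 to 0.0774 for Tcf7 and from 0.00738 to 0.0648 for Wnt9a. Without WT_DMSO replicate 2, 4 members passed. Wnt10a and Wnt7a kept their PKD_DMSO against WT_DMSO calls in 15 of 15 alternatives. In these runs the library left alone in its group is assumed to vary like those of the other groups.

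Markers of kidney and other cell types moved with the genotype. In PKD_DMSO against WT_DMSO kidneys limma called lower 4 of 8 proximal tubule markers, 4 of 7 markers of the thick ascending limb and distal convoluted tubule, 2 of 6 intercalated cell markers and 2 of 6 podocyte markers, and 0 of 6 principal cell and 0 of 6 endothelial markers. The 10 fibroblast and myofibroblast markers summed to 1241 and 2201 FPKM in PKD_FP, 823 and 1692 FPKM in PKD_DMSO, 322 and 437 FPKM in WT_FP, and 447 and 172 FPKM in WT_DMSO kidneys, and 5 of the 10 were called higher in PKD_DMSO than in WT_DMSO. The 8 macrophage and myeloid markers summed to 557 and 760 FPKM in PKD_FP, 576 and 1098 FPKM in PKD_DMSO, 99.7 and 111 FPKM in WT_FP, and 97.3 and 62.6 FPKM in WT_DMSO kidneys, and 8 of 8 were called higher in PKD_DMSO. None of these fibroblast and myeloid markers was at 0 in any library. The part of any of these cell types in the differences of the Wnt genes was not tested.

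**Figure D2:**
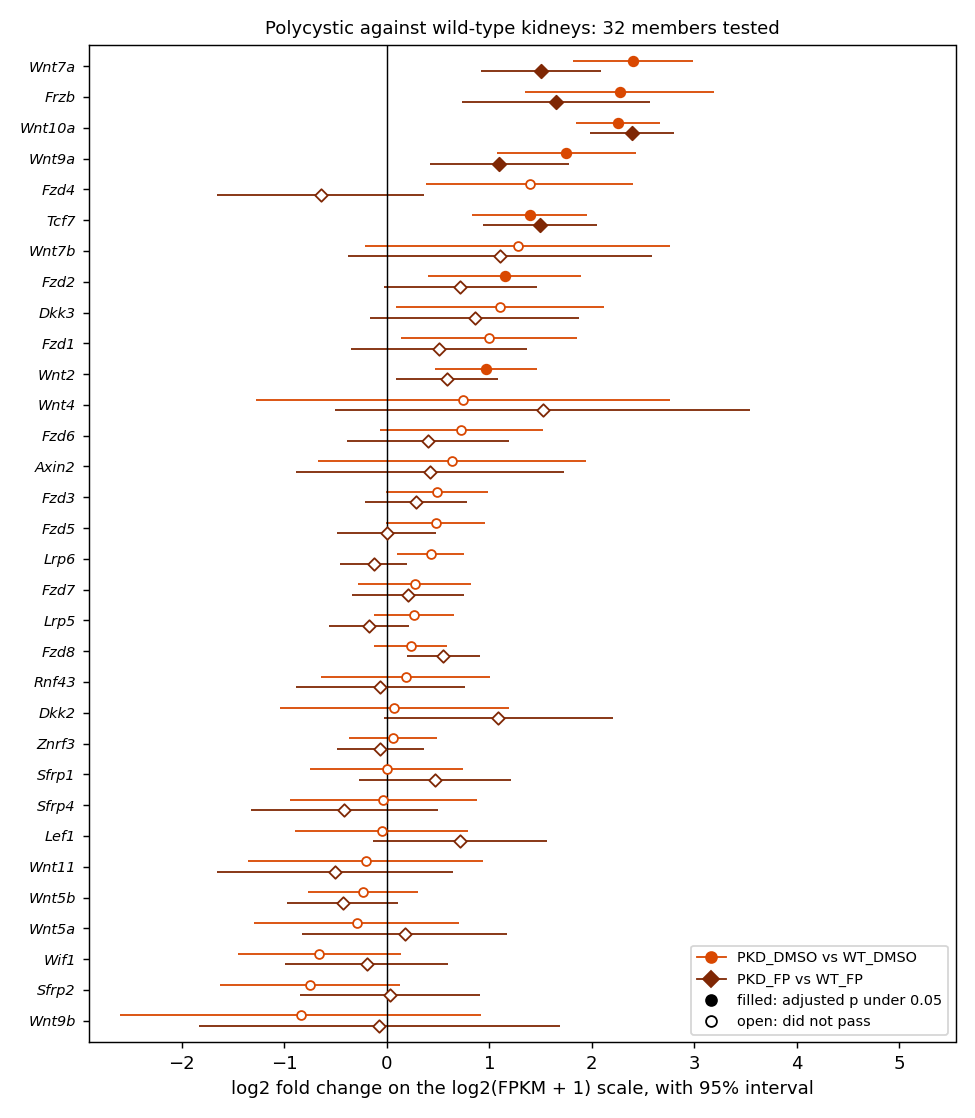
Difference between the genotypes for the 32 members tested, with its 95% interval, on the log2(FPKM + 1) scale, for PKD_FP vs WT_FP and PKD_DMSO vs WT_DMSO. Filled symbols passed the limma test: 7 in PKD_DMSO vs WT_DMSO and 5 in PKD_FP vs WT_FP, all higher in PKD.

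The second question was whether the genotypes differed under flavopiridol. In PKD_FP against WT_FP kidneys, Wnt10a, Wnt7a, Wnt9a, Frzb and Tcf7 were higher, by the values given above, and no member was lower. With Benjamini-Hochberg adjustment limma called 5 of 32 members higher and 0 lower, and of all genes 8.71% higher and 5.23% lower. The share of members, 15.6%, was not tested against that of all genes. Wnt10a, Wnt7a and Wnt9a reached the minimum level only through PKD libraries, so this count too is a description. At an unadjusted p under 0.05, limma gave 7 members higher, against 18.9% of all genes, and 0 lower, against 12.5%. The 5 were also called with vehicle, but a call in one comparison and not in the other does not show that Wnt2 and Fzd2 differed between treatments, and the interaction test below called neither. The 5 calls went down to 1, Wnt10a, without WT_FP replicate 1, without PKD_FP replicate 1 or without PKD_FP replicate 2, and to 0 without both WT_FP replicate 2 and PKD_FP replicate 2. Calls over all genes also fell in those runs, which left a compared group with 1 library. Nothing particular to the Wnt genes is read from the drop. With no filter on low values, Frzb and Wnt9a no longer passed.

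Over all 8 libraries, 11 of the 32 members had every PKD library above every WT library: Wnt10a, Wnt7a, Wnt9a, Wnt2, Frzb, Tcf7, Fzd1, Fzd2, Fzd3, Fzd8 and Dkk3. Of all genes tested, 22.0% did so. The opposite was found for 0 members, against 11.7% of all genes. The share of members, 34.4%, includes those that passed the filter only through PKD libraries.

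Promoter windows of Frzb, Tcf7, Wnt7a and Wnt9a (RefSeq, GRCm38.p6) are shown because these genes, 4 of the 5 members so called, were called in both genotype comparisons. Each window runs from 250 bases before to 50 bases after a listed start, which for Tcf7 and Wnt9a lies inside the gene extent given above, 5′ to 3′ on the gene's strand. They lie at chr2:80447347-80447646, minus strand (Frzb), chr11:52282965-52283264, minus strand (Tcf7, the first of 2 listed starts), chr6:91411304-91411603, minus strand (Wnt7a), and chr11:59306680-59306979, plus strand (Wnt9a). The windows of both Tcf7 starts lie wholly within the extent of that gene, so no sequence upstream of Tcf7 was searched. Capitals mark the core motif of TCF/LEF factors, CTTTGA, or its reverse complement TCAAAG.
Frzb: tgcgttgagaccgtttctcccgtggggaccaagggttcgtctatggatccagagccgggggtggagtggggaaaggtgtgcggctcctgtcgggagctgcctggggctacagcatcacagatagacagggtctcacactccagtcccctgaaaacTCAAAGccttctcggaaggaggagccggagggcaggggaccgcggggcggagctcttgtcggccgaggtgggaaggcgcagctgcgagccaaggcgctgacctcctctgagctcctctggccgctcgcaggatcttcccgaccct
Tcf7: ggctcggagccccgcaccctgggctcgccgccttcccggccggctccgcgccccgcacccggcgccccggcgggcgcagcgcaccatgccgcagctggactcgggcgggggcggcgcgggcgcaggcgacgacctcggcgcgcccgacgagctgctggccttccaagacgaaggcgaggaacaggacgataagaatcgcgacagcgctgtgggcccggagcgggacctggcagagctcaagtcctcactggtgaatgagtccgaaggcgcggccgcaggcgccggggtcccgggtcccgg
Wnt7a: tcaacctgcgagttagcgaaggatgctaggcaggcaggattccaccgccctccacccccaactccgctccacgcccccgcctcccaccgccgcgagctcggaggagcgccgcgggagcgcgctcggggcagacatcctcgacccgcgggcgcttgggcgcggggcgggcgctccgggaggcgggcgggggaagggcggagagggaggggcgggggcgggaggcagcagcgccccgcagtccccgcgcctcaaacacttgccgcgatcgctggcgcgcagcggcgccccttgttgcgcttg
Wnt9a: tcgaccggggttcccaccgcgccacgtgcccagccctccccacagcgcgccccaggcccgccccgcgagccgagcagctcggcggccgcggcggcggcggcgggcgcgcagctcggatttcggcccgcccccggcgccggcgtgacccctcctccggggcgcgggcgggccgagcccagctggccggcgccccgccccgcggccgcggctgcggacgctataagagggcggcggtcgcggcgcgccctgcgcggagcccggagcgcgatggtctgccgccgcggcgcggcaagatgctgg
The motif, searched on both strands, was found in the Frzb window alone of these 4, beginning at base 156. Over all 32851 promoters listed, 16.0% hold it, and so do 6 of the 39 windows of 31 members, 15.4%, namely Dkk1, Frzb, Fzd1, Lef1, Wnt11 and Wnt5b. The windows differ in base composition: GC was 64.7% for Frzb, 76.3% for the Tcf7 start shown and 64.3% for its other start, 76.0% for Wnt7a and 83.3% for Wnt9a, against a median of 52.7%. CpG pairs numbered 20 in Frzb, 45 and 17 at the 2 Tcf7 starts, 42 in Wnt7a and 58 in Wnt9a, against a median of 7.

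Of the Frizzled receptors only Fzd2 was called. For Fzd1, Fzd3, Fzd4, Fzd5, Fzd6, Fzd7 and Fzd8, both PKD_DMSO libraries also lay above both WT_DMSO libraries, without passing the limma test (20 of 32 members, against 41.2% of all genes, had this order). The 20 include Wnt10a, Wnt7a, Wnt9a, Wnt2 and Fzd3, which reached the minimum level only through PKD libraries. Their share was not tested against that of all genes, and Sfrp2, Wif1, Wnt5b and Wnt9b had the opposite order. Fzd1 (chromosome 5, 4753839 to 4758216) had 22.7 and 16.8 FPKM in PKD_FP, 17.7 and 38.0 FPKM in PKD_DMSO, 15.9 and 11.3 FPKM in WT_FP, and 11.4 and 13.7 FPKM in WT_DMSO kidneys. The groups did not overlap in genotype, but the difference of 0.99 ± 0.36 between PKD_DMSO and WT_DMSO did not pass (limma adjusted p = 0.0907). Without PKD_DMSO replicate 1 it did (limma adjusted p = 0.0330, with 0.0891 to 0.402 over the other alternatives).

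Fzd4 (chromosome 7, 89404366 to 89410110), a receptor for norrin and Wnts known from vessel growth, was the Frizzled that varied most with the drug. It had 9.89 and 3.83 FPKM in PKD_FP, 15.8 and 28.9 FPKM in PKD_DMSO, 10.1 and 10.6 FPKM in WT_FP, and 6.38 and 8.88 FPKM in WT_DMSO kidneys. Both PKD_FP libraries lay below both PKD_DMSO libraries, and both WT_FP libraries lay above both WT_DMSO libraries. The PKD_DMSO to WT_DMSO difference was 1.39 ± 0.43 (limma adjusted p = 0.0580), and the PKD_FP to PKD_DMSO difference was -1.63 ± 0.43 (limma adjusted p = 0.141). The interaction, the drug difference in PKD less that in WT kidneys, was -2.04 ± 0.60 (unadjusted p = 0.0122, limma adjusted p = 0.400). The genotype difference passed in 4 alternatives, with a limma adjusted p of 0.0352 to 0.04999, those without PKD_FP replicate 1, without PKD_FP replicate 2, without both WT_FP replicate 2 and PKD_FP replicate 2, and with only the groups compared. Over all 15 alternatives its adjusted p ranged from 0.0352 to 0.297.

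Fzd6 (chromosome 15, 39006149 to 39038192), a polarity receptor known from the alignment of hair follicles, had 11.1 and 17.1 FPKM in PKD_FP, 12.8 and 14.96 FPKM in PKD_DMSO, 7.08 and 14.6 FPKM in WT_FP, and 8.37 and 7.58 FPKM in WT_DMSO kidneys. The vehicle groups were apart, but the difference of 0.73 ± 0.33 did not pass (limma adjusted p = 0.160), except with only the groups compared (limma adjusted p = 0.0495). Fzd8, a receptor on chromosome 18, had 7.45 and 7.56 FPKM in PKD_FP, 6.04 and 5.82 FPKM in PKD_DMSO, 5.19 and 4.44 FPKM in WT_FP, and 4.91 and 4.88 FPKM in WT_DMSO kidneys. All PKD libraries were above all WT libraries, and the PKD_FP to WT_FP difference of 0.55 ± 0.15 came nearest to the threshold among those that missed it (limma adjusted p = 0.0536). Fzd3, Fzd5 and Fzd7 lay between 0.61 and 8.03 FPKM in all libraries and passed no test. Fzd9 and Fzd10 were too low to test.

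Neither co-receptor was called in any comparison. Lrp6 (chromosome 6, 134446476 to 134566913) had 14.3 and 15.3 FPKM in PKD_FP, 19.9 and 21.6 FPKM in PKD_DMSO, 15.5 and 17.2 FPKM in WT_FP, and 16.0 and 14.4 FPKM in WT_DMSO kidneys. Both PKD_DMSO libraries stood above the other 6. Neither the PKD_DMSO to WT_DMSO difference of 0.43 ± 0.14 (limma adjusted p = 0.0648) nor the PKD_FP to PKD_DMSO difference of -0.46 ± 0.14 (limma adjusted p = 0.162) passed. Lrp5 (chromosome 19, 3584825 to 3686585) had 9.96 and 12.5 FPKM in PKD_FP, 12.1 and 14.7 FPKM in PKD_DMSO, 12.9 and 12.5 FPKM in WT_FP, and 10.92 and 10.99 FPKM in WT_DMSO kidneys. Its PKD_DMSO to WT_DMSO difference was 0.26, with a 95% interval of -0.13 to 0.65.

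**Figure D3:**
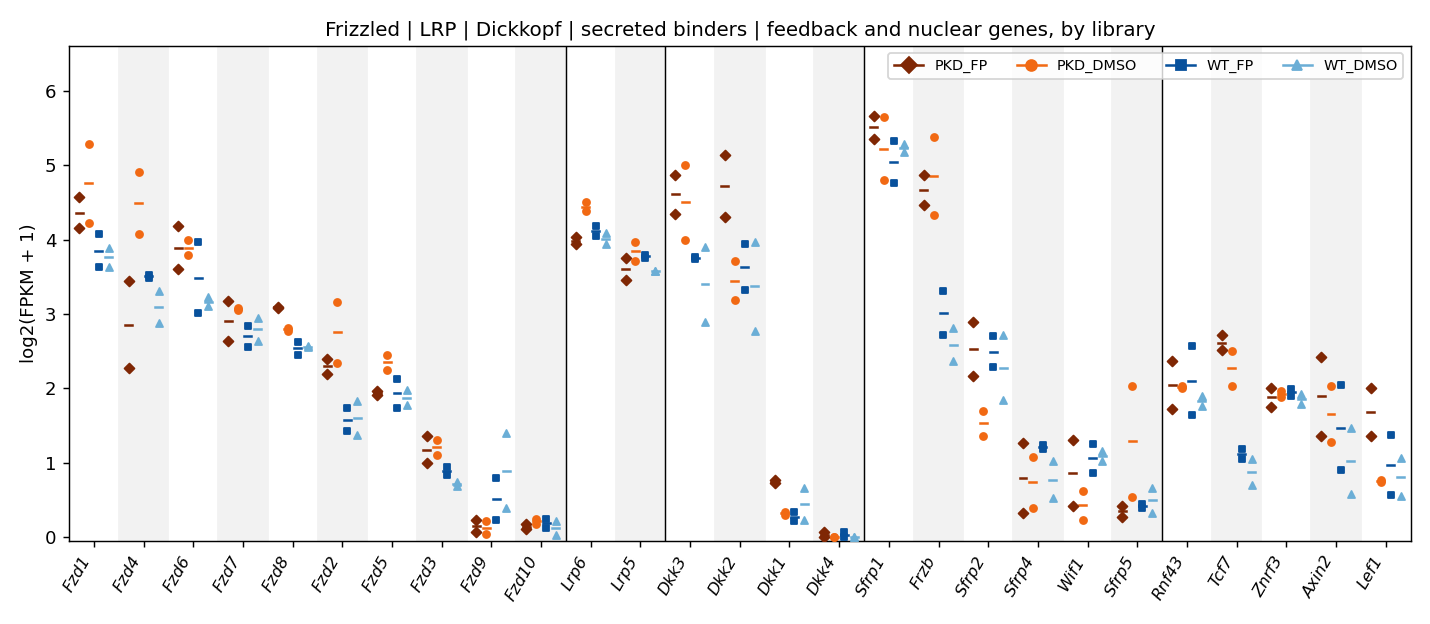
Level of the Frizzled, LRP, Dickkopf, secreted binder, and feedback and nuclear genes in each of the 8 libraries on the log2(FPKM + 1) axis, with a bar at each group's mean. Frzb and Tcf7 show the PKD_FP and PKD_DMSO libraries above the WT_FP and WT_DMSO libraries, and Fzd4 shows PKD_FP below PKD_DMSO.

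Of the secreted antagonists, only Frzb was called in any comparison, and no contrast between these genes was tested. Sfrp1 (chromosome 8, 23411383 to 23449632), a ligand binder and the most abundant member, had 40.0 and 49.6 FPKM in PKD_FP, 26.8 and 49.1 FPKM in PKD_DMSO, 39.0 and 26.1 FPKM in WT_FP, and 35.0 and 37.8 FPKM in WT_DMSO kidneys. The vehicle groups overlapped, with a PKD_DMSO to WT_DMSO difference of 0.00 and a 95% interval of -0.75 to 0.74. Sfrp2 had 3.48 and 6.42 FPKM in PKD_FP, 2.23 and 1.58 FPKM in PKD_DMSO, 3.90 and 5.49 FPKM in WT_FP, and 5.56 and 2.59 FPKM in WT_DMSO kidneys. Both PKD_DMSO libraries were the lowest of the 8, but neither the difference from WT_DMSO, -0.75 ± 0.37 (limma adjusted p = 0.187), nor that of PKD_FP from PKD_DMSO, 0.998 ± 0.370 (limma adjusted p = 0.216), passed.

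Dkk2 (chromosome 3, 132085266 to 132180304), an LRP-binding Dickkopf, had 18.7 and 34.2 FPKM in PKD_FP, 8.07 and 12.1 FPKM in PKD_DMSO, 8.98 and 14.4 FPKM in WT_FP, and 14.7 and 5.83 FPKM in WT_DMSO kidneys. Both PKD_FP libraries were above the other 6, by 1.27 ± 0.47 over PKD_DMSO, which did not pass (limma adjusted p = 0.214). Dkk3 (chromosome 7, 112116019 to 112159482), a divergent Dickkopf that does not block LRP6 in the usual way, had 19.4 and 28.3 FPKM in PKD_FP, 14.99 and 31.0 FPKM in PKD_DMSO, 12.6 and 12.4 FPKM in WT_FP, and 13.9 and 6.43 FPKM in WT_DMSO kidneys. The genotypes did not overlap, yet the PKD_DMSO to WT_DMSO difference of 1.10 ± 0.43 did not pass (limma adjusted p = 0.108). Dkk1, the best known blocker of LRP6, was too low to test, at 0.66 and 0.70 FPKM in PKD_FP, 0.27 and 0.23 FPKM in PKD_DMSO, 0.16 and 0.27 FPKM in WT_FP, and 0.59 and 0.18 FPKM in WT_DMSO kidneys. Sfrp4 and Wif1 ranged from 0.18 to 1.47 FPKM and passed no test, and Dkk4 and Sfrp5 were not tested.

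The feedback and nuclear genes other than Tcf7 were not called. Axin2 (chromosome 11, 108917828 to 108950783), the usual readout of beta-catenin activity, had 1.58 and 4.35 FPKM in PKD_FP, 1.43 and 3.10 FPKM in PKD_DMSO, 0.87 and 3.12 FPKM in WT_FP, and 1.76 and 0.50 FPKM in WT_DMSO kidneys. The groups overlapped and the libraries of a group differed about as much as the groups. The PKD_DMSO to WT_DMSO difference was 0.63, with a 95% interval of -0.67 to 1.94. Lef1 (chromosome 3, 131110297 to 131224357), a nuclear partner of beta-catenin, had 1.57 and 3.0 FPKM in PKD_FP, 0.71 and 0.68 FPKM in PKD_DMSO, 0.48 and 1.59 FPKM in WT_FP, and 1.10 and 0.47 FPKM in WT_DMSO kidneys. Its PKD_DMSO to WT_DMSO difference was -0.05, with a 95% interval of -0.90 to 0.80. Lef1 and Tcf7, members of one factor family, thus gave different values in the vehicle comparison, a contrast between genes that was not itself tested.

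Rnf43 and Znrf3 encode membrane ubiquitin ligases that remove Frizzleds from the cell surface. Rnf43 had 2.29 and 4.14 FPKM in PKD_FP, 3.09 and 3.01 FPKM in PKD_DMSO, 2.11 and 4.95 FPKM in WT_FP, and 2.72 and 2.41 FPKM in WT_DMSO kidneys. Znrf3 had 2.38 and 3.03 FPKM in PKD_FP, 2.68 and 2.90 FPKM in PKD_DMSO, 2.97 and 2.74 FPKM in WT_FP, and 2.81 and 2.46 FPKM in WT_DMSO kidneys. Znrf3 hardly moved: its PKD_DMSO to WT_DMSO difference was 0.06, with a 95% interval of -0.36 to 0.49, and turned to -0.0497 with median-of-ratios scaling.

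The ligands of nephron and collecting duct development spread between the libraries of a group. Wnt4 (chromosome 4, 137277635 to 137299501) had 19.7 and 53.3 FPKM in PKD_FP, 20.8 and 18.7 FPKM in PKD_DMSO, 3.51 and 29.4 FPKM in WT_FP, and 12.8 and 10.1 FPKM in WT_DMSO kidneys. The vehicle groups were apart, but the PKD_DMSO to WT_DMSO difference of 0.74 had a 95% interval of -1.28 to 2.76. Wnt7b (chromosome 15, 85535437 to 85581821) had 30.8 and 40.3 FPKM in PKD_FP, 29.8 and 32.9 FPKM in PKD_DMSO, 6.85 and 35.3 FPKM in WT_FP, and 13.8 and 11.1 FPKM in WT_DMSO kidneys. All 4 PKD libraries were near one another, and WT_FP replicate 2 was as high as they were while the other 3 WT libraries were well below. The difference was 1.27 ± 0.62 between PKD_DMSO and WT_DMSO (limma adjusted p = 0.184) and 1.10 ± 0.62 between PKD_FP and WT_FP (limma adjusted p = 0.278).

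Leaving out 1 library changed these results. The PKD_DMSO to WT_DMSO difference of Wnt7b passed without WT_FP replicate 1 and without WT_FP replicate 2. It also passed without both WT_FP replicate 2 and PKD_FP replicate 2, and with only the groups compared (limma adjusted p = 0.0174). Its size stayed the same, because WT_FP and PKD_FP kidneys are outside this comparison and enter only the scatter used by the test. Over all 15 alternatives its adjusted p ranged from 0.0109 to 0.440. Between PKD_FP and WT_FP, the difference of Wnt7b was 2.21 without WT_FP replicate 2 (limma adjusted p = 0.0173) and -0.000501 without WT_FP replicate 1 (limma adjusted p = 1). That of Wnt4 was 2.89 without WT_FP replicate 2 (limma adjusted p = 0.0342) and 0.14 without WT_FP replicate 1 (limma adjusted p = 0.909). Whether these ligands differed under flavopiridol thus depended on which WT_FP library was kept. Wnt9b, the ureteric bud signal to the nephron-forming cells, had 2.99 and 5.74 FPKM in PKD_FP, 1.72 and 1.22 FPKM in PKD_DMSO, 1.30 and 11.9 FPKM in WT_FP, and 4.27 and 2.68 FPKM in WT_DMSO kidneys. It was thus lower in both PKD_DMSO libraries than in both WT_DMSO libraries, with a difference of -0.84 and a 95% interval of -2.60 to 0.92.

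Wnt5a (chromosome 14, 28504543 to 28527448), a ligand of the polarity branch, had 7.94 and 18.1 FPKM in PKD_FP, 5.59 and 6.36 FPKM in PKD_DMSO, 7.70 and 14.4 FPKM in WT_FP, and 9.21 and 6.16 FPKM in WT_DMSO kidneys. It passed no test. Wnt11 had 1.30 and 3.68 FPKM in PKD_FP, 0.99 and 1.42 FPKM in PKD_DMSO, 2.38 and 5.43 FPKM in WT_FP, and 2.47 and 0.85 FPKM in WT_DMSO kidneys. Wnt5b, the close relative of Wnt5a, had 2.17 and 2.03 FPKM in PKD_FP, 3.75 and 3.45 FPKM in PKD_DMSO, 3.98 and 2.50 FPKM in WT_FP, and 5.06 and 3.81 FPKM in WT_DMSO kidneys, and was called in no comparison.

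**Figure D4:**
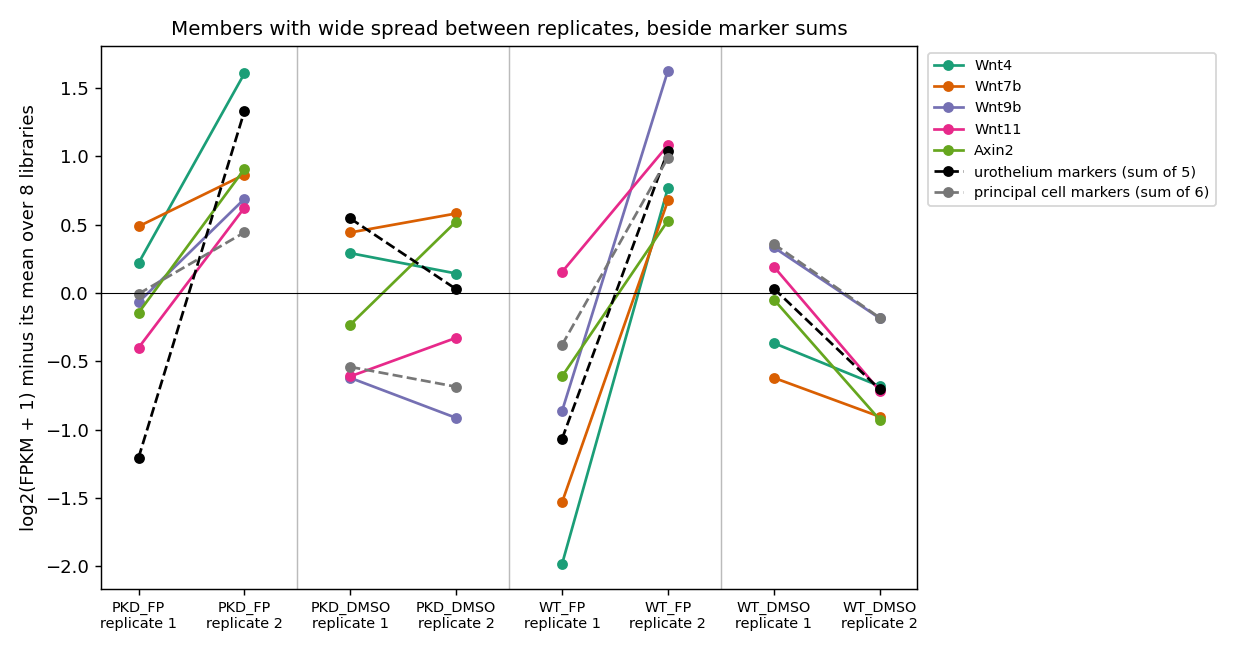
Levels of 5 members with a wide spread between replicates (solid) and of summed urothelium and principal cell markers (dashed), as log2(FPKM + 1) less its mean over the 8 libraries, with lines joining the 2 libraries of a group. PKD_FP replicate 2 and WT_FP replicate 2 lie above the other library of their group for Wnt4, Wnt7b and Wnt9b.

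In these genes, replicate 2 of PKD_FP and replicate 2 of WT_FP were the higher library of their groups, and this went for Wnt4, Wnt7b, Wnt9b, Wnt11, Wnt5a, Axin2, Lef1 and Dkk2. The 5 urothelium markers summed to 28.9 and 172 FPKM in PKD_FP, 99.5 and 69.2 FPKM in PKD_DMSO, 31.9 and 141 FPKM in WT_FP, and 69.4 and 41.3 FPKM in WT_DMSO kidneys. The 6 principal cell markers summed to 995 and 1360 FPKM in PKD_FP, 687 and 621 FPKM in PKD_DMSO, 769 and 1987 FPKM in WT_FP, and 1282 and 882 FPKM in WT_DMSO kidneys. The 8 adipocyte markers summed to 145 and 367 FPKM in PKD_FP, 152 and 249 FPKM in PKD_DMSO, 185 and 1611 FPKM in WT_FP, and 285 and 113 FPKM in WT_DMSO kidneys. Replicate 2 of both flavopiridol groups thus led its group in these sums as well, and in the fibroblast, myeloid, endothelial and adrenal cortex sums. Replicate 1 of both led in the proximal tubule, thick ascending limb and distal convoluted tubule, intercalated cell, podocyte and lymphocyte sums. Over all genes tested, the differences between replicates correlated at 0.48 between PKD_FP and WT_FP, so this order is not particular to the genes named. A sum leans on its highest markers, and single markers did not all follow it. The principal cell markers Aqp3, Scnn1g and Hsd11b2 were higher in replicate 1 of PKD_FP. Slc12a1 of the thick ascending limb and the intercalated cell markers Slc4a1, Foxi1 and Aqp6 were higher in replicate 2 of both flavopiridol groups. The part of any of these cell types in the levels of the Wnt genes was not tested. In every contrast, 0 urothelium, 0 principal cell and 0 adipocyte markers were called.

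The third question was what flavopiridol changed. It shares its libraries with the genotype comparisons: the PKD_DMSO libraries serve as disease in one and as control in the other, so the signs of the 2 comparisons are tied, and they are given side by side only. In PKD_FP against PKD_DMSO kidneys limma called 0 of 32 members, and 0.0139% of all genes, after Benjamini-Hochberg adjustment. At an unadjusted p under 0.05, limma gave 7 members, 21.9%, against 19.5% of all genes, a share near the background. Above were Dkk2, Sfrp2 and Lef1, 3 of 32, against 10.3% of all genes, and below were Fzd4, Wnt7a, Lrp6 and Wnt5b, 4 of 32, against 9.14%. Wnt7a differed by -0.86 ± 0.25 (limma adjusted p = 0.156), Wnt5b by -0.57 ± 0.23 (limma adjusted p = 0.238) and Lef1 by 0.92 ± 0.36 (limma adjusted p = 0.230). The members whose groups did not overlap were 7 higher, against 31.4% of all genes, and 7 lower, against 25.2%.

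The genes highest in polycystic kidneys had values of differing size under the drug. Wnt10a differed by 0.15 between PKD_FP and PKD_DMSO, with a 95% interval of -0.26 to 0.57. Tcf7 differed by 0.35 (-0.21 to 0.90), Frzb by -0.19 (-1.11 to 0.73) and Wnt9a by -0.49 (-1.17 to 0.18). These intervals include no difference and, for Frzb and Wnt9a, also include a change of more than 1 on this scale.

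In WT_FP against WT_DMSO kidneys, limma called 0 of 32 members and 0% of all genes, and at an unadjusted p under 0.05 it gave 0 members and 1.27% of all genes. Fzd3, Fzd4, Lrp5 and Sfrp4 had both WT_FP libraries above both WT_DMSO libraries, 4 of 32, against 16.6% of all genes. The interaction of genotype and drug was called for 0 members and 0% of all genes by limma with Benjamini-Hochberg adjustment. At an unadjusted p under 0.05 it gave 3 members, 9.38%, against 11.2% of all genes. These were Fzd4, given above, Lrp6 at -0.56 ± 0.19 (limma adjusted p = 0.411) and Wnt7a at -0.90 ± 0.35 (limma adjusted p = 0.429).

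**Figure D5:**
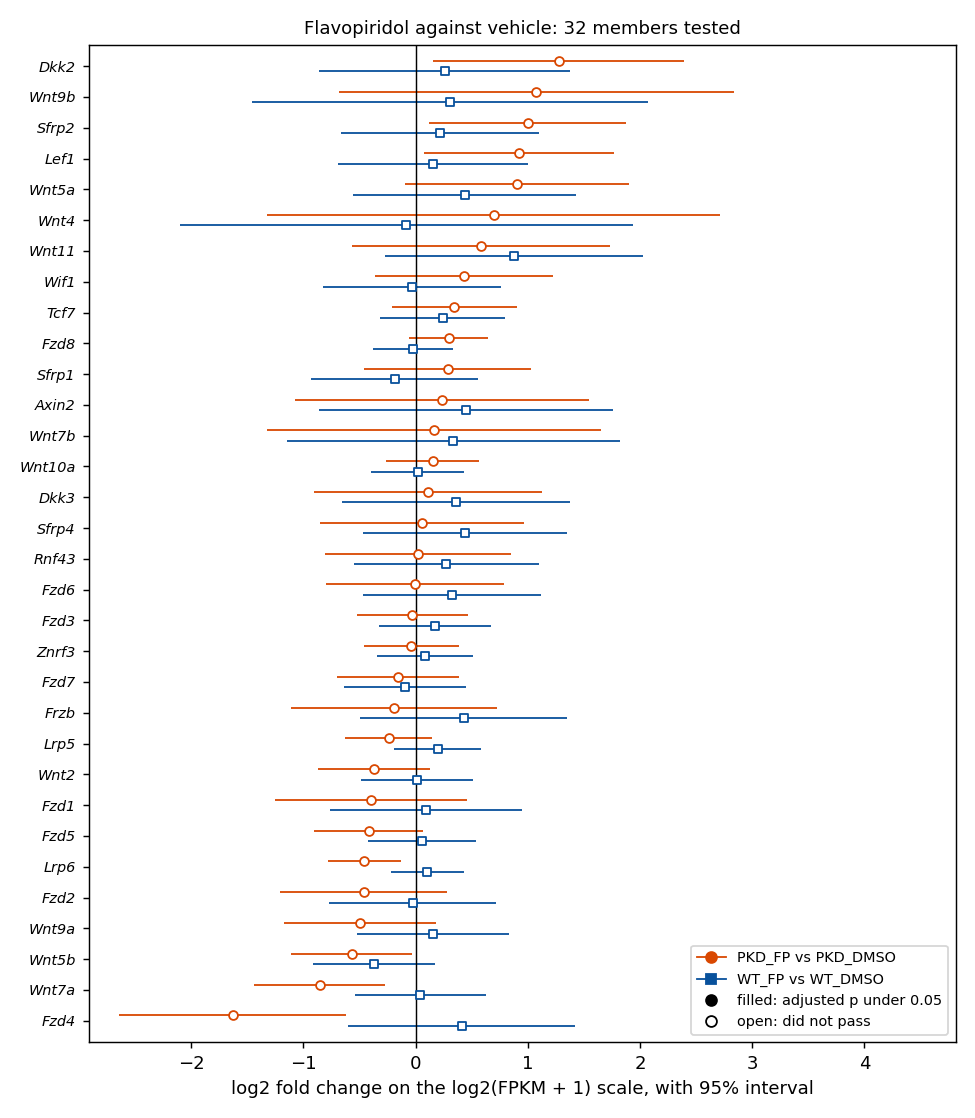
Difference between flavopiridol and vehicle for the 32 members tested, with its 95% interval, on the log2(FPKM + 1) scale, for PKD_FP vs PKD_DMSO and WT_FP vs WT_DMSO. No symbol is filled, since no member passed the limma test, and Fzd4 has the lowest value, -1.63, in PKD_FP vs PKD_DMSO.

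The rest of the pathway was described from 7 lists, in limma calls for PKD_DMSO against WT_DMSO kidneys, with all p-values adjusted over all genes. The counts stand beside the 14.8% of all genes called higher, the 7.52% called lower and the median of 0.12, and no difference of a list from these was tested. Ligand secretion and shedding had 0 higher and 2 lower of 4 tested, with a median difference of -0.77. Notum, an enzyme that strips the lipid from Wnts, had 1.10 and 1.61 FPKM in PKD_FP, 3.19 and 1.51 FPKM in PKD_DMSO, 12.9 and 7.12 FPKM in WT_FP, and 9.55 and 11.1 FPKM in WT_DMSO kidneys. The WT libraries were higher without overlap, and Notum fell by 1.80 ± 0.34 in PKD_DMSO (limma adjusted p = 0.0146). Trabd2b, a protease that cuts Wnts, differed by -1.16 ± 0.32 (limma adjusted p = 0.0445). Wls, the carrier that takes Wnts to the cell surface, differed by 0.42 ± 0.16 and did not pass (limma adjusted p = 0.106).

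R-spondins, their LGR receptors and Kremens had 4 of 9 genes tested, of which 1 was higher, 0 were lower and the median was -0.24. The called gene was Kremen1, a Dickkopf receptor, at 0.88 (limma adjusted p = 0.0430). The other receptors and modulators had 3 higher and 0 lower of 14 tested, with a median of 0.29. These were Tpbg, a membrane inhibitor of Wnt signalling, at 1.51 ± 0.25, the pseudokinase Ptk7 at 1.63 ± 0.30, and the glypican Gpc3 at 2.19 ± 0.51, with limma adjusted p from 0.00978 to 0.0268. Gpc3 had 81.2 and 23.0 FPKM in PKD_FP, 77.7 and 82.3 FPKM in PKD_DMSO, 21.1 and 15.7 FPKM in WT_FP, and 16.4 and 17.1 FPKM in WT_DMSO kidneys, so that the PKD_FP libraries were far apart.

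The destruction complex and Dishevelled list had 5 higher and 0 lower of 21 tested, with a median of 0.64. Casein kinase genes Csnk1d and Csnk1a1 were higher by 0.94 and 0.87, the Dishevelled-binding antagonist Nkd2 by 2.40, and Tnks, which marks Axin for breakdown, by 1.20, with limma adjusted p from 0.00652 to 0.0194. Ctnnb1, which encodes beta-catenin, had 151 and 187 FPKM in PKD_FP, 182 and 206 FPKM in PKD_DMSO, 122 and 123 FPKM in WT_FP, and 108 and 122 FPKM in WT_DMSO kidneys. All PKD libraries were above all WT libraries, and the PKD_DMSO to WT_DMSO difference was 0.75 (limma adjusted p = 0.0236). Nuclear partners had 2 higher, the corepressor Tle3 and Tbl1x, and 0 lower of 15 tested, with a median of 0.28. The planar polarity list had 2 higher, Celsr1 and Rac1, and 1 lower, Fuz, of 19 tested, with a median of 0.20.

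Transcripts known as beta-catenin targets in some tissues had 10 higher and 2 lower of 26 tested, with a median of 0.60. Mmp7, a matrix metalloproteinase, had 9.14 and 27.0 FPKM in PKD_FP, 71.3 and 59.5 FPKM in PKD_DMSO, 0.41 and 0.15 FPKM in WT_FP, and 0 and 0.06 FPKM in WT_DMSO kidneys. The growth regulator Myc had 28.1 and 31.1 FPKM in PKD_FP, 30.2 and 24.6 FPKM in PKD_DMSO, 4.87 and 6.30 FPKM in WT_FP, and 4.66 and 3.23 FPKM in WT_DMSO kidneys. All PKD libraries were above all WT libraries for both genes, and the PKD_DMSO minus WT_DMSO difference was 6.01 ± 0.44 for Mmp7 (limma adjusted p = 0.00159) and 2.53 ± 0.21 for Myc (limma adjusted p = 0.00162). Cd44, an adhesion receptor, had 5.97 and 13.0 FPKM in PKD_FP, 10.7 and 9.0 FPKM in PKD_DMSO, 0.98 and 0.99 FPKM in WT_FP, and 0.79 and 0.46 FPKM in WT_DMSO kidneys. The tight junction gene Cldn1 had 21.9 and 16.8 FPKM in PKD_FP, 28.5 and 27.8 FPKM in PKD_DMSO, 11.2 and 9.64 FPKM in WT_FP, and 7.28 and 7.49 FPKM in WT_DMSO kidneys. For Cd44 and Cldn1 too, all PKD libraries were above all WT libraries, and the PKD_DMSO to WT_DMSO difference was 2.74 ± 0.33 for Cd44 (limma adjusted p = 0.00434) and 1.80 ± 0.17 for Cldn1 (limma adjusted p = 0.00202). Sox9, Jun, Plaur, Fst, Fn1 and Met were the other 6 that were higher, and Notum and Vegfa were the 2 lower. Between PKD_FP and WT_FP kidneys, 9 of the 26 were higher and 2 lower, against 8.71% and 5.23% of all genes. In PKD_FP against PKD_DMSO and in WT_FP against WT_DMSO 0 members of any list were called.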

How the data were processed

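Whole-kidney total RNA was extracted with TRIzol and selected with oligo dT, and BGI made the libraries, per the labels' protocols. The submitters' processing notes name Bowtie2, DESeq2 and the build mm10 without version or role. The deposited values, with 2 decimals, were taken as FPKM, though the headers give no unit, because they were not whole and became nearly equal library totals once multiplied by transcript length. No label or header says how the authors counted reads or with which annotation. Of 20245 rows in each file, 5 were left out (repeated symbols and 1 dash), which left 20240 genes. Groups and replicate numbers came from the sample titles.

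The deposited FPKM were put on the log2(FPKM + 1) scale without further scaling, and a gene needed 1 FPKM or more in 2 or more libraries (14391 did). One limma fit (version 3.58.1, R 4.3.3) had a mean per group over all 8 libraries, with trend and robust moderation, two-sided p-values and Benjamini-Hochberg adjustment. The code was tested on simulated data. At 2 libraries against 2, a permutation test of 1 gene cannot give a two-sided p below 0.333, so none was run.

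The members, gene lists and tests were chosen with earlier results of these data known. Per-library values were planned for members called in any contrast and for up to 3 members with the highest mean in each family. Those of Axin2, Lef1, Fzd8, Wnt5b, Wnt6, Wnt9b, Wnt11, and of Cd4 and Ctnnb1, were added after values were seen. For other pathway genes, up to 4 per list with the smallest p were named, and the further called target genes by name only. All 46 members matched RefSeq (GRCm38.p6, the assembly of mm10) for positions. The alternatives were no low-value filter, a pseudocount of 0.1, median-of-ratios and quantile scaling, a block for replicate number, only the groups compared, and each library left out. One more, without both WT_FP replicate 2 and PKD_FP replicate 2, was chosen after seeing the data.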

Additional observations from a re-analysis of the deposited data

How the results depend on the processing

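In PKD_DMSO against WT_DMSO, the 7 members called became 2 to 7 when 1 library was left out, being 4 without WT_DMSO replicate 2 and 2 without PKD_DMSO replicate 2; the cause was not tested. In PKD_FP against WT_FP, the 5 called became 1 to 5 with 1 library left out, 3 with no low-value filter, and 0 without both WT_FP replicate 2 and PKD_FP replicate 2; the last choice was made after seeing the data and leaves 1 library in each of these groups, and it called 0 of all genes. Other settings gave 6 to 9 and 4 to 5 members. Calls over all genes also fell whenever a compared group was left with 1 library. Without WT_FP replicate 2, Frzb and Wnt9a dropped out of the PKD_FP against WT_FP calls, and Wnt4 and Wnt7b came in. The PKD_FP to PKD_DMSO, WT_FP to WT_DMSO and interaction comparisons called 0 members under every alternative run, and no member that was called changed direction. Among differences that were not called, that of Znrf3 between PKD_DMSO and WT_DMSO turned to -0.0497 with median-of-ratios scaling and -0.13 with quantile normalization. With 1 library left out, the signs of Znrf3, Sfrp1 and Lef1 in that comparison, Wnt7b in PKD_FP against WT_FP and Frzb in PKD_FP against PKD_DMSO also turned, over ranges of -0.00820 to 0.131 for Znrf3, -0.43 to 0.42 for Sfrp1, -0.31 to 0.21 for Lef1, -0.000501 to 2.21 for Wnt7b and -0.72 to 0.34 for Frzb. Deviations of same-numbered libraries had no common sign across pairs of groups. They correlated at 0.48 between PKD_FP and WT_FP, -0.43 between PKD_FP and WT_DMSO, and -0.52 between WT_FP and WT_DMSO. Pairs with PKD_DMSO lay between -0.18 and 0.15. A fit with the replicate block called 6 members in PKD_DMSO against WT_DMSO and 4 in PKD_FP against WT_FP. Depth in reads is unknown, so values near 0 FPKM carry no counting interval, and 14 of the 46 members were too low to test.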

Other observations

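Members too low to test gave some values that stood apart. Sfrp5, a secreted ligand binder, had 3.11 FPKM in PKD_DMSO replicate 2, against 0.21 to 0.59 FPKM in the other 7 libraries. Fzd9, a Frizzled receptor, had 1.63 FPKM in WT_DMSO replicate 1 and 0.74 FPKM in WT_FP replicate 2, against 0.03 to 0.31 FPKM in the other 6. Wnt8b, a ligand best known from the brain, had 1.44 FPKM in WT_FP replicate 2, against 0.05 to 0.66 FPKM elsewhere. Wnt2b had 1.96 FPKM in PKD_DMSO replicate 2, against 0.32 to 0.85 FPKM elsewhere. Rspo1, an R-spondin that strengthens Wnt signals, had 3.61 FPKM in that same library, against 0.28 to 0.85 FPKM in the other 7.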
